A study of Jatropha curcas with 4 samples.

Results

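Transcripts that were among the most abundant in waterlogged Jatropha roots and not in non-stressed ones are described here. The gene models were chosen by their mean CPM, a gene's counts per 1000000 counts of its library once library sizes are scaled by TMM (trimmed mean of M-values): they stood in the top 300 of the waterlogged mean and outside the top 300 of the non-stress mean. This held for 149 of the 17410 gene models with values, of which 10 were set aside by the same rule, leaving 139 members. Because the rule used the level in both treatments, every difference between the treatments given for these members is a description, and no test is read from it.

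Waterlogged roots (WS) came from 30-day-old, six-leaf plants of Jatropha curcas, an oil-seed shrub, whose pots had stood for 24 h with water 3 cm above the soil. Non-stressed roots (NS) came from plants of the same age kept for 24 h in a container without water. Whole roots were harvested in both treatments, so each library mixes all root cell types, and the series describes the 2 libraries per treatment as biological replicates made from mRNA pools. The libraries, made from poly(A) RNA, were read on an Ion Proton sequencer, and the gene models are those of the draft genome release 4.5. The summed counts were 4143491 and 2531520 in WS replicates 1 and 2, and 6110438 and 1204502 in NS replicates 1 and 2. Before TMM scaling, 1 CPM thus stood for 4.14 and 2.53 reads in the WS libraries and for 6.11 and 1.20 in the NS libraries. The TMM factors that multiply these library sizes were 0.907 and 0.939 in WS and 1.07 and 1.10 in NS. Of 7 photosynthesis genes taken as markers of green tissue, none exceeded 39.3 CPM in any library, and their summed level was 68.6 and 37.5 CPM in WS against 76.9 and 65.0 CPM in NS. Defining markers of root cells were not analysed here.

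Water fills the air spaces of the soil and slows the diffusion of oxygen to the root, which then has less oxygen for respiration. Flooded plant cells are known to shift to fermentation, to lower the translation of many mRNAs and to keep others in large amounts. The most abundant mRNAs of a tissue can take much of its translation capacity. The ranking used here is one of shares of the reads, not corrected for gene length, and translation was not measured.

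Of the 139 members, 7 had a name or a description in the tables used, which hold only part of the study's own descriptions, and the other 132 are given by their gene model ID only. The described ones are a transcription factor of the RAV family, an oxidoreductase, a glutamate dehydrogenase, 3 parts of the translation machinery and a protein-folding enzyme. The RAV gene, JcRAV-3, is the member whose coding sequence was at hand. Its gene model Jcr4S03357.10 is on the minus strand of Jcr4S03357:1425-2507, with 1 coding exon of 1083 bases that encodes 360 residues. RAV proteins carry an AP2 DNA-binding domain followed by a B3 DNA-binding domain. The stretch below is codons 54 to 113, over the AP2 domain that places the gene in the AP2/ERF superfamily. The capitals mark codons 81 to 83, the Trp-Leu-Gly residues that are a hallmark of this domain.

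JcRAV-3, coding bases 160 to 339: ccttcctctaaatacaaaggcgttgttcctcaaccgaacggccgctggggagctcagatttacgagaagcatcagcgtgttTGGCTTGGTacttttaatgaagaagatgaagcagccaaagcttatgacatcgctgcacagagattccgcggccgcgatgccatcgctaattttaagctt

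The members together took 14.4% of the counts in WS replicate 1 and 11.9% in WS replicate 2, against 2.77% in NS replicate 1 and 2.54% in NS replicate 2. The 95% Clopper-Pearson intervals were 14.3 to 14.4% and 11.9 to 12% in WS, and 2.76 to 2.78% and 2.52 to 2.57% in NS. These intervals cover counting error only, and the 2 WS libraries were further apart than that. In whole roots, a change in the cells present and a change in the RNA per cell cannot be told apart. The 151 gene models abundant in both treatments took 17.3 and 20.5% of the counts in WS and 18.6 and 18.1% in NS. The 149 gene models abundant only in NS took 2.86 and 4.13% of the counts in WS and 11.4 and 11.8% in NS. All 3 sets were chosen on these levels. The median member stood at 825 and 676 CPM in the WS libraries and at 157 and 154 CPM in the NS libraries.

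The 300th gene model of the WS mean stood at 517 CPM and that of the NS mean at 401 CPM. Just inside the WS limit were Jcr4S06632.40 at 521 CPM, Jcr4S02527.20 at 525 CPM and Jcr4S00228.30 at 525 CPM. Just outside it were Jcr4S00356.100 at 517 CPM, Jcr4S22071.10 at 517 CPM and Jcr4S00685.50 at 515 CPM. Nearest to the NS limit from inside were Jcr4S02143.40, Jcr4S05857.10 and Jcr4S00106.50, at NS means of 397, 392 and 383 CPM. Gene models of the WS top 300 that stood just past it were Jcr4S01164.20, Jcr4S03161.40 and Jcr4S04538.10, at NS means of 401, 406 and 406 CPM. At either limit the nearest member therefore stood close to a gene model left outside, at 521 against 517 CPM in WS and 397 against 401 CPM in NS. Jcr4S00685.50, with an NS mean of 1521 CPM, was also in the NS top 300 and so failed both parts of the rule. Being a member is a rank, and many members had a high level in NS roots as well.

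**Figure D1:**
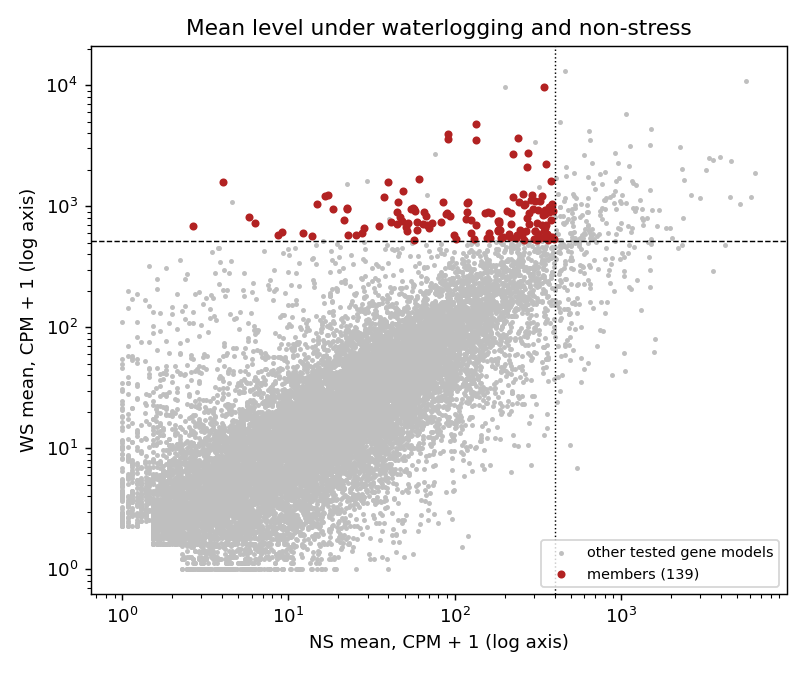
Mean level of each tested gene model in WS (vertical, CPM + 1, log axis) against its mean level in NS (horizontal, CPM + 1, log axis), with the 139 members in red. The dashed line is the level of the 300th gene model in WS and the dotted line that in NS; grey points between the lines are the 10 gene models set aside. The members run from close to the NS limit down to NS levels under 10 CPM.

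The ratio of the WS mean to the NS mean ran from 1.35 to 517 with a median of 5.37. It was under 2 for 16 members and from 2 to under 4 for 40 members. For 30 members it lay from 4 to under 10, for 33 from 10 to under 30, and for 20 it was at least 30. In the NS ranking, 21 members stood at places 301 to 400, 27 at 401 to 600, 20 at 601 to 1000, 27 at 1001 to 3000 and 44 lower still, of which 7 were below place 10000. The members thus join gene models already close to the NS top list and gene models that were scarcely sequenced in NS roots. The median WS mean was 554 CPM for ratios under 2 and 960 CPM for ratios of at least 30, and the median NS mean was 351 CPM and 16 CPM in the same classes. The rule bounds the WS mean from below and the NS mean from above, so nothing is read from this contrast.

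Both WS libraries lay above both NS libraries in 132 of the 139 members, where 25.7% of all tested gene models did so. When scaled by total library size, 125 of the members did so. The quasi-likelihood test of edgeR, fitted across all 17410 gene models, called 81 members higher in WS and none lower, where 2.45% of all tested gene models were called higher and 1.91% lower. Over all gene models these were 427 calls higher and 333 lower, and 361 higher and 433 lower when scaled by total library size. At an unadjusted p under 0.05, 120 members were higher, where 9.38% of all tested gene models were. The rule used the same contrast, so these counts say how the members are made up and nothing more. None of the 16 members with a ratio under 2 was called, 4 of the 40 with a ratio from 2 to under 4, 27 of the 30 from 4 to under 10, and 50 of the 53 at 10 or more. The median fitted log2 fold change of the members was 2.42, against 0.01 over all tested gene models, with standard errors from 0.41 to 1.59 among the members. Without NS replicate 1 or without NS replicate 2, no gene model at all passed edgeR's adjustment, and 96 and 91 members were higher at an unadjusted p under 0.05, where 9.83% and 5.39% of all tested gene models were. Without WS replicate 1 the test called 104 members higher, where 3.87% of all tested gene models were called higher, and without WS replicate 2 it called 110, where 6.0% of all were.

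Ordered by CPM, which is not corrected for gene length, the first member was Jcr4S02562.30, a gene model with 16 coding exons. It had 8234 and 11093 CPM in WS replicates 1 and 2, against 365 and 326 CPM in NS replicates 1 and 2. Its WS mean of 9664 ± 2022 CPM (SD, n = 2) was 28.0 times its NS mean of 345 ± 27.6 CPM (SD, n = 2). It alone took 0.747% and 1.04% of the WS counts, against 0.0390% and 0.0358% of the NS counts.

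The next members in this order were also far apart between the treatments. Jcr4S01891.30 had 3777 and 5822 CPM in WS, against 150 and 117 CPM in NS. Jcr4S00273.150 had 4495 and 3353 CPM in WS, against 79.7 and 102 CPM in NS. Both had a WS mean over 30 times the NS mean. Jcr4S01799.10 had 3153 and 4138 CPM in WS, against 224 and 254 CPM in NS. Jcr4S00253.60 had 4587 and 2665 CPM in WS, against 101 and 80.2 CPM in NS. Jcr4S00504.20 had 3135 and 3974 CPM in WS, against 152 and 116 CPM in NS. In these 5 gene models the lower WS library stood more than 10 times above the higher NS library.

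The rest of the 10 highest had smaller ratios. Jcr4S02762.40 had 3141 and 2376 CPM in WS, against 336 and 212 CPM in NS. Jcr4S01993.10, with 1 coding exon, had 2408 and 2959 CPM in WS, against 215 and 231 CPM in NS. Jcr4S04540.50, also with 1 coding exon, had 2821 and 1425 CPM in WS, against 210 and 336 CPM in NS. Jcr4S06442.10 differed from the other 9: it had 4051 CPM in WS replicate 1 but 433 CPM in WS replicate 2, against 289 and 420 CPM in NS, so that WS replicate 2 was barely above the higher NS library. The 10 highest members held 25.1 and 30.0% of the members' reads in WS, against 8.2 and 9.47% in NS. In the WS ranking, 3 members were in the top 10, 13 in the top 50 and 30 in the top 100.

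**Figure D2:**
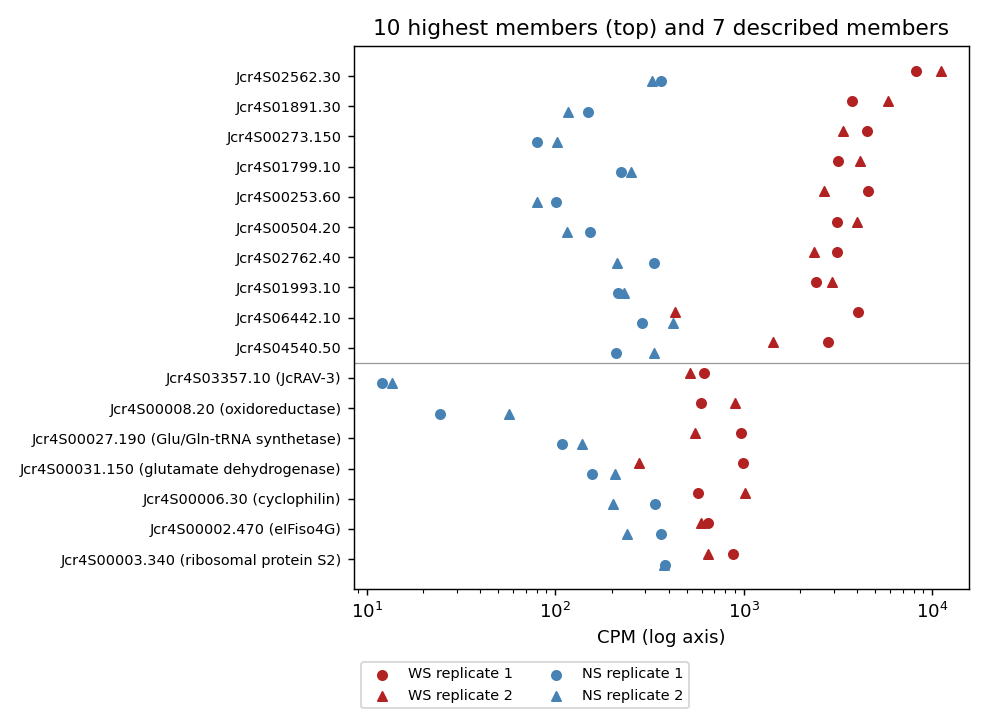
CPM (log axis) of the 10 highest members, above the line, and the 7 described members, below it, with red symbols for WS and blue for NS libraries, circles for replicate 1 and triangles for replicate 2. In all 17 both red symbols lie to the right of both blue ones, most narrowly in Jcr4S06442.10, at 433 against 420 CPM.

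Among the described members, JcRAV-3 had 617 and 517 CPM in WS, against 12.1 and 13.6 CPM in NS. Both replicate pairs were close, and the WS mean of 567 ± 70.3 CPM was 44.1 times the NS mean of 12.8 ± 1.08 CPM (SD, n = 2 each). It stood at place 266 in WS and at place 9875 in NS. Of the other 3 RAV genes in the tables, JcRAV-2 had 13.0 and 12.2 CPM in WS against 24.5 and 6.05 CPM in NS, and JcRAV-1 and JcRAV-4 had at most 1 read in any library. In Arabidopsis, several RAV genes are known as repressors of growth and flowering.

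Jcr4S00008.20 is described as an NAD(P)-linked oxidoreductase, placed in the chalcone branch of flavonoid synthesis, which makes plant phenolics. It had 594 and 899 CPM in WS, against 24.6 and 56.7 CPM in NS. The WS mean was 746 ± 216 CPM and the NS mean 40.7 ± 22.7 CPM (SD, n = 2 each), a ratio of 18.4. The groups did not overlap. Jcr4S00008.30, named after its values were seen, has the same functional bin and lay 529 bases away on the same strand. That gene model had 3.46 and 10.1 CPM in WS, against 11.3 and 0.756 CPM in NS.

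Jcr4S00031.150 encodes a glutamate dehydrogenase alpha subunit, an enzyme that interconverts glutamate and 2-oxoglutarate with release or uptake of ammonium. It had 995 and 279 CPM in WS, against 157 and 208 CPM in NS. The WS libraries were 3.57-fold apart, and the lower one stood above both NS libraries. Its mean was 637 ± 507 CPM in WS and 183 ± 35.9 CPM in NS (SD, n = 2 each).

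The 3 members of the translation machinery act at different steps. Jcr4S00027.190 encodes a glutamyl/glutaminyl-tRNA synthetase, which loads an amino acid onto its tRNA, and had 975 and 553 CPM in WS, against 109 and 138 CPM in NS, a ratio of 6.18. Jcr4S00003.340 encodes the small-subunit ribosomal protein S2, and had 879 and 644 CPM in WS, against 381 and 378 CPM in NS, a ratio of 2.01. Jcr4S00002.470 encodes eIFiso4G, a plant scaffold protein that brings mRNA to the ribosome, and had 645 and 598 CPM in WS, against 366 and 241 CPM in NS, a ratio of 2.04. All 3 had both WS libraries above both NS libraries, and the S2 and eIFiso4G genes entered the list from NS places 330 and 468. Another gene model in the S2 bin, Jcr4S00003.330, was named after its values were seen. At WS place 307 it was no member, with 442 and 579 CPM in WS against 242 and 295 CPM in NS.

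Jcr4S00006.30 encodes a cyclophilin, a peptidyl-prolyl isomerase that helps proteins fold. It had 576 and 1013 CPM in WS, against 340 and 203 CPM in NS. Its mean was 795 ± 309 CPM in WS and 271 ± 97.0 CPM in NS (SD, n = 2 each), and the groups did not overlap.

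The lists that these described members belong to were read beside them, among the 665 gene models whose functional bin was at hand. Of 28 translation genes, 1 was called higher by edgeR's quasi-likelihood test and 0 lower (6 at an unadjusted p under 0.05, and 1 by DESeq2), with a median log2 fold change of 0.33 and a range from -1.46 to 2.63. The one called was the member Jcr4S00027.190. Of 10 genes of amino acid and nitrogen metabolism, 1 was called higher by edgeR and 1 lower (4 at an unadjusted p under 0.05, and 3 by DESeq2). The member glutamate dehydrogenase was called by DESeq2 and not by edgeR. Of 13 protein folding and heat genes, 0 were called by edgeR (5 at an unadjusted p under 0.05, and 2 by DESeq2). Of 14 oxidase and secondary metabolism genes, 4 were called higher by edgeR, Jcr4S00008.20 among them, and 1 lower (7 at an unadjusted p under 0.05, and 5 by DESeq2). No member was among the 4 genes of glycolysis and fermentation, the 21 of the ubiquitin pathway, the 15 of cell organisation or the 11 of calcium signalling, but 1 gene of glycolysis and fermentation and 1 of cell organisation were among the 10 gene models set aside. In these 4 lists edgeR called 0, 0, 1 and 2 genes higher and 0 lower (1, 3, 3 and 3 at an unadjusted p under 0.05), and DESeq2 called 1 in each in either direction. The median log2 fold changes of the lists were 0.21, 0.02, -0.16 and 0.86, beside 0.01 over all tested gene models. Over all tested gene models edgeR called 2.45% higher and 1.91% lower, 19.9% had an unadjusted p under 0.05, and DESeq2 called 9.74%. The lists cover a small part of the genome, and the 132 members with no description could belong to any of them.

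The 5 highest ratios belonged to members with low NS levels. Jcr4S02297.10 had 3017 and 149 CPM in WS, against 6.12 and 0 CPM in NS, a ratio of 517. Jcr4S02031.30 had 714 and 657 CPM in WS, against 3.37 and 0 CPM in NS, a ratio of 407. Jcr4S00937.30 had 744 and 895 CPM in WS, against 9.64 and 0 CPM in NS, a ratio of 170. In these 3 the shallowest library, NS replicate 2, had no read, which allows a level of up to 2.27 CPM there, and NS replicate 1 had 40, 22 and 63 reads. With NS replicate 2 at that limit in place of 0, their ratios were 377, 243 and 138, an alternative chosen after seeing the data. Jcr4S01045.10 had 498 and 953 CPM in WS, against 3.06 and 7.56 CPM in NS, a ratio of 137. Jcr4S00320.20 had 2184 and 227 CPM in WS, against 19.0 and 12.1 CPM in NS, a ratio of 77.6. Every member had reads in NS replicate 1, at least 20, and 4 of the 139 had none in NS replicate 2. The fourth of these, named after its values were seen, was Jcr4S01486.20, with 1008 and 894 CPM in WS against 35 and 0 CPM in NS. All members were thus sequenced in NS roots, and 6 had an NS mean under 10 CPM.

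At the other end, the 5 lowest ratios belonged to gene models abundant under both treatments. Jcr4S02143.40 had 523 and 547 CPM in WS, against 509 and 284 CPM in NS. Jcr4S00106.50 had 564 and 548 CPM in WS, against 379 and 388 CPM in NS. Jcr4S00228.30 had 506 and 544 CPM in WS, against 346 and 378 CPM in NS. The WS means of these 3 were 1.35, 1.45 and 1.45 times the NS means. Jcr4S00190.30 had 662 and 428 CPM in WS, against 484 and 264 CPM in NS, so that its groups overlapped. Jcr4S00050.80 had 478 and 628 CPM in WS, against 429 and 315 CPM in NS. Jcr4S06632.40, just inside the WS limit, had 489 and 553 CPM in WS against 306 and 217 CPM in NS, and Jcr4S02527.20 had 582 and 468 CPM in WS against 315 and 307 CPM in NS.

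The WS libraries agreed for many members and not for others. Of the 139, 75 were within 1.5-fold between the WS libraries and 35 were over 2-fold apart, or 25.2%. The same share, 25.2%, was found among the 151 gene models abundant in both treatments, and it was 51.0% among the 149 abundant only in NS. The direction was uneven: 28 members were over 2-fold higher in WS replicate 1 and 7 in WS replicate 2. Among the gene models abundant in both treatments the split was 14 and 24, among those abundant only in NS it was 8 and 68, and over all tested gene models it was 3430 and 3380. The rule took the mean of the WS libraries, so a very high level in either library alone could make a gene model a member. With all libraries thinned to the same depth the split among the members was 28 and 6. At that depth edgeR called 80 members higher, where 2.29% of all tested gene models were called higher, and 132 members had both WS libraries above both NS libraries, where 26.4% of all did.

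At over 4-fold, 17 members were higher in WS replicate 1 and 1 in WS replicate 2. The 5 largest differences were in Jcr4S02297.10, Jcr4S01333.20, Jcr4S04594.10, Jcr4S13509.10 and Jcr4S00320.20. Jcr4S01333.20 had 1656 and 130 CPM in WS, against 28.3 and 101 CPM in NS. Jcr4S04594.10 had 1266 and 103 CPM in WS, against 52.2 and 15.9 CPM in NS. Jcr4S13509.10 had 2179 and 214 CPM in WS, against 13.2 and 60.5 CPM in NS. In all 5, WS replicate 1 was over 9-fold above WS replicate 2, which was itself above both NS libraries. Over the 17 members WS replicate 1 ran from 929 to 4051 CPM with a median of 1652 CPM, and WS replicate 2 from 103 to 512 CPM with a median of 208 CPM. WS replicate 2 was still above both NS libraries in 13 of the 17, a count that the rule favours by bounding the NS mean from above. In WS replicate 2, 16 of the 17 were outside the top 300. The single case the other way, named after its values were seen, was Jcr4S00971.120, with 347 and 1575 CPM in WS against 54.3 and 56.0 CPM in NS.

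Ranked within each library, 80 members (57.6%) were in the top 300 of both WS libraries, 33 in that of WS replicate 1 only and 26 in that of WS replicate 2 only. Of the gene models abundant in both treatments 72.2% were in the top 300 of both WS libraries. From WS replicate 2 alone the rule gave 139 gene models, of which 106 were members, and from WS replicate 1 alone it gave 156, of which 113 were members. The 7 members whose groups overlapped were Jcr4S01187.50, Jcr4S00089.150, Jcr4S00085.60, Jcr4S10295.10, Jcr4S07480.30, Jcr4S08285.10 and Jcr4S00190.30. In 6 of these 7, WS replicate 2 was the lower WS library. In the NS libraries, 20 members were over 2-fold higher in replicate 1 and 6 in replicate 2. Over all tested gene models this split was 4784 and 2199. It was 4 and 1 among those abundant in both treatments, and 9 and 3 among those abundant only in NS.

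**Figure D3:**
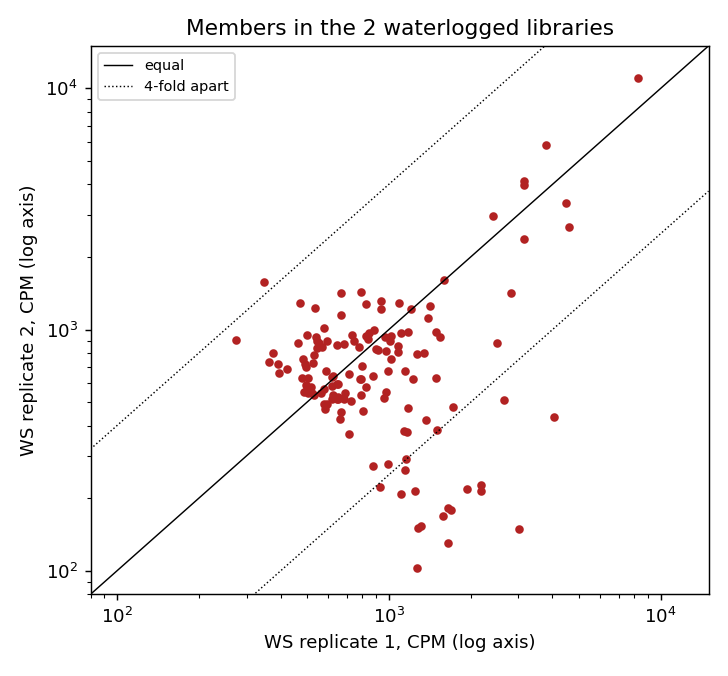
CPM of the 139 members in WS replicate 2 (vertical, log axis) against WS replicate 1 (horizontal, log axis); the solid line marks equal levels and the dotted lines a 4-fold difference. Most points lie near the solid line, 17 lie below the lower dotted line and 1 above the upper one.

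The structure of the gene models was not used by the rule directly. CPM is not corrected for gene length, however, so coding length can bear on the ranking. Ranked per kb of coding length, only 64 of the members remained. The members had a median of 5 coding exons, with a range from 1 to 39, against a median of 4 in the gene models abundant in both treatments, in those abundant only in NS and over all tested gene models. Their median coding length was 1218 bases, against 1095 bases in those abundant in both treatments, 1437 bases in those abundant only in NS and 1047 bases over all tested gene models. A single coding exon was found in 24 members (17.3%), against 13.2%, 10.1% and 16.2% in the same order. These differences are given without a test, and so are the ratios that follow, whose WS and NS means the rule bounds. By number of exons, the median ratio of WS to NS was 10.1 for the 24 members with 1 exon, 7.59 for the 50 with 2 to 5 exons, 4.55 for the 30 with 6 to 10, 3.35 for the 17 with 11 to 14 and 4.5 for the 18 with 15 or more.

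**Figure D4:**
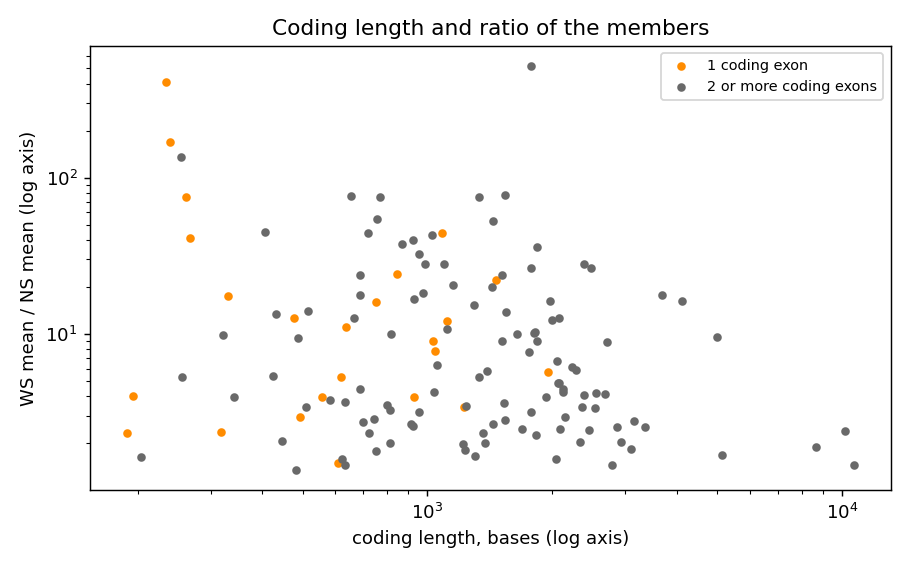
WS mean over NS mean (vertical, log axis) against coding length in bases (horizontal, log axis) for the 139 members, in orange for 1 coding exon and grey for more. Of the 5 highest ratios 3 are at coding lengths under 300 bases, and the highest, 517, is at 1782 bases.

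No note in the annotation questioned 117 of the members (84.2%), against 79.3% of all tested gene models. This share was 86.1% in the gene models abundant in both treatments and 93.3% in those abundant only in NS. Of the rest, 9 were noted short, 11 partial, 5 as transposable elements (TE) and 5 as pseudogenes, some with more than 1 note. In the same order these were 6.47, 7.91, 3.6 and 3.6% of the members. Over all tested gene models the shares were 7.16, 12.6, 3.83 and 3.78%, so no note was more frequent among the members than there. They were 3.97, 7.28, 3.97 and 1.32% in the gene models abundant in both treatments, and 1.34, 4.03, 1.34 and 0% in those abundant only in NS. The short, partial and pseudogene notes were thus more frequent among the members than in either of these sets, which was not tested. The 9 short members had coding lengths from 188 to 267 bases and ratios from 1.63 to 407, and 4 of them had an NS mean under 10 CPM. These 4 were Jcr4S02031.30, Jcr4S00937.30, Jcr4S01045.10 and Jcr4S04584.70, the last with 724 and 505 CPM in WS against 9.48 and 6.81 CPM in NS.

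The 5 TE-noted members ranged widely. Jcr4S05131.10 had 1422 and 1254 CPM in WS, against 33.7 and 62.0 CPM in NS. Jcr4S03589.20 had 799 and 704 CPM in WS, against 207 and 163 CPM in NS. The other three had high NS levels: Jcr4S00811.60 had 1022 and 758 CPM in WS against 379 and 364 CPM in NS, Jcr4S00478.100, also noted pseudo and partial, had 483 and 758 CPM in WS against 329 and 358 CPM in NS, and Jcr4S00106.50 is given above. Jcr4S00811.60 and Jcr4S00106.50 had 39 coding exons each and coding lengths of 10161 and 10698 bases. Copies of a transposable element can share reads, so the level of any 1 copy is uncertain.

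Among the pseudo-noted members, Jcr4S00903.10 had 803 and 461 CPM in WS, against 65.2 and 51.4 CPM in NS. Jcr4S01045.120 had 785 and 625 CPM in WS, against 161 and 106 CPM in NS. Jcr4S03341.10, also short, had 473 and 1292 CPM in WS, against 145 and 293 CPM in NS. Jcr4S03278.10 had 649 and 593 CPM in WS, against 325 and 281 CPM in NS. In these 4 the groups did not overlap, and the ratio ran from 2.05 to 10.8.

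CPM also depends on gene length, so the order above is one of shares of the reads, and levels were set side by side between genes per kb of coding length. On that scale the members ran from 51.9 to 5938 CPM per kb in WS, with a median of 783. The highest was the short model Jcr4S01590.130, with 5938 CPM per kb in WS against 145 CPM per kb in NS. Jcr4S05857.10, of 188 coding bases, followed with 4855 CPM per kb in WS against 2085 CPM per kb in NS. Jcr4S02562.30 had 4057 CPM per kb in WS against 145 CPM per kb in NS, and the lowest was Jcr4S00106.50 with 51.9 CPM per kb in WS against 35.8 CPM per kb in NS. Only 3 of the 10 highest members by CPM were among the 10 highest per kb, and 6 of those 10 were short models. Jcr4S01590.130 itself had 2659 and 512 CPM in WS, against 50.3 and 27.2 CPM in NS.

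The members lay on 137 scaffolds, and no 2 of them were next to each other. This holds only with the 10 gene models set aside not counted. Jcr4S02762.40 lay directly beside one of these, with 1641 bases between them, and Jcr4S00982.140 had 1 gene model between it and another. The 2 scaffolds with a pair of members held Jcr4S00290.20 and Jcr4S00290.50, with 2 gene models and 19995 bases between them, and Jcr4S01045.10 and Jcr4S01045.120, with 10 gene models and 49291 bases between them. Jcr4S00290.20 had 884 and 999 CPM in WS, against 64.7 and 47.6 CPM in NS, and Jcr4S00290.50 had 960 and 521 CPM in WS, against 93.3 and 69.6 CPM in NS. Another gene model lay within 1 kb of 29 members (20.9%), against 27.9% of all tested gene models, and none overlapped a member. This share was 18.5% in the gene models abundant in both treatments and 10.7% in those abundant only in NS. Of the 32 gene models found within 1 kb, 27 were tested, 1 was called higher by edgeR and 0 lower. That one was Jcr4S00937.20, on the same strand as the member Jcr4S00937.30 and 955 bases from it, with 254 and 461 CPM in WS against 2.45 and 0 CPM in NS. It was named after its values were seen. Whether both models belong to 1 transcript was not tested.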

How the data were processed

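The authors mapped trimmed Ion Proton reads with TMAP, and the raw counts per gene model that they deposited, made with HTSeq, cover 57437 gene models. Their deposited comparison holds CPM over the TMM-scaled library size (a normalized signal) for 17410 gene models. The log2 fold changes, p-values and likelihood-ratio scores that the authors deposited beside them were not used, nor was the score field of the deposited annotation. HTSeq and edgeR are named in the submitters' processing notes. Their versions, and whether counting used strand, are not given in the sources used here.

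Members and lists were chosen with earlier results of these data known. From the counts, gene models that reached 1 CPM in 2 or more libraries were compared with edgeR 4.0.16 in R 4.3.3 (TMM, glmQLFTest, two-sided, no covariate, Benjamini-Hochberg adjusted p under 0.05), with limma 3.58.1 and DESeq2 1.42.0 as alternatives, and the fit was tested on simulated data. Standard errors were derived from the F statistic. Summaries used pandas 2.3.3, numpy 2.4.6 and scipy 1.17.1. The p-values measure only the spread between these libraries. A library with no read was taken as 0 in means and ratios, and the limit printed beside it is a floor of 3 counts.

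Named were the described members, the 10 highest by WS mean, the 5 highest and 5 lowest ratios, the 5 largest differences between WS libraries, TE and pseudogene models, adjacent members and the 3 gene models on each side of each limit. Descriptions are best matches to other species in the study's supplementary tables, of which a shortened copy with 665 gene models was used, and the sequence is the study's own. RefSeq names matched 0 of the gene IDs.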

Additional observations from a re-analysis of the deposited data

How the results depend on the processing

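The number of members was 141 with total library size, 142 with RLE, 141 with upper quartile scaling, 141 at equal depth, 144 from the mean of log2(CPM + 1), 107 for the top 200 and 222 for the top 500, against 139, and 133 per kb of coding length, of which only 64 were the same gene models. Those shared with the 139 numbered 139 under each of the other scalings and 137 at equal depth. They numbered 132 with the mean of log2(CPM + 1), 85 for the top 200 and 103 for the top 500. Leaving out 1 library gave 139 to 156. The members called higher numbered from 73 (total library size) to 105 (no filter) against 81 over the other scalings, filters, tests and equal depth, and from 0 to 110 without 1 library. The fits without 1 NS library, which take the lone NS library to vary like the WS libraries, called no gene model. The median log2 fold change lay from 2.20 to 2.51 under those settings and from 2.23 to 2.52 without 1 library. Of 574 log2 fold changes of the 41 named members under the alternatives, 0 changed sign, 46 lost and 28 gained the call, 44 of the losses without an NS library. Replicates share only a number: the replicate differences of the treatments correlated at r = 0.09 over gene models, and the replicate block called 96 members, with a median log2 fold change of 2.39. Counts of all gene models called moved by over 1.5 times, from 427 higher and 333 lower to 802 and 882 with the block, 916 and 1088 with the likelihood ratio test, 857 and 838 with DESeq2, and 966 and 997 with no filter, which kept 24805 gene models. With total library size they were 361 and 433. The depth of NS replicate 2 limits levels near 2.27 CPM.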
